A study of Mus musculus with 10 samples.

Results

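The genes described here are the neighbours of Tdg on mouse chromosome 10, whose start lies within 10 Mb of the start of Tdg. They were chosen by position and by detection (at least 20 reads in at least 1 ESC line), less a list of genes left out by name that was drawn up with earlier results of these data known. Of 455 annotated genes in this window, 234 were below 20 reads in every line, 12 detected genes including Tdg itself were left out by name, and 209 remained, of 14081 genes detected in all. The genes left out include those of ribosomal and respiratory chain proteins and also 4 genes within 1 Mb of Tdg on the lower side, Gm3055, Gm32687, Gm4924 and 1190007I07Rik, each of which differed between Tdg-/- and wt lines. The counts over the 209 genes are therefore not those of an unselected neighbourhood, and the values of these 4 genes are given beside them. Of these, 159 lay on the side of lower coordinates and 50 on the side of higher coordinates, so the window was far denser in expressed genes on one side of Tdg than on the other. Distances are taken on GRCm38. The most distant gene included was Zwint at 9.975 Mb, and the nearest detected gene outside the window was Nedd1 at 10.055 Mb. Rfx4, with 21 reads in its highest line, was the least covered gene included, and C2cd4c, with 18 reads, fell just outside. The 209 genes comprised 204 protein coding genes and 5 pseudogenes, and their mean level over the 10 lines ran from 0.319 to 2020 CPM, with a median of 18.04 CPM. CPM is the number of reads of a gene scaled to the library size of the line, and it is not corrected for gene length.

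RNA was sequenced from 10 male mouse embryonic stem cell (ESC) lines of C57BL/6 background, 3 wt, 3 Tdg+/- and 4 Tdg-/-, each line giving 1 library. All lines were derived from timed matings of Tdg+/- mice, freed of feeder cells by passaging and grown on gelatin in serum free medium with LIF and 2i, so that all 3 genotypes share derivation, medium and sex. The wt lines carry 2 wild-type Tdg alleles, the Tdg+/- lines 1 and the Tdg-/- lines 0. Because each line inherited the chromosome 10 around Tdg together with its Tdg allele, the genotype at Tdg and the origin of the neighbouring sequence cannot be told apart in these lines. Which mating a line came from is not given in the labels. The paper reports fewer matings than lines, so some lines share parents. The tests treat lines as independent, so p-values reflect line to line variation and do not account for shared parents.

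Thymine DNA glycosylase, the product of Tdg, excises thymine mispaired with guanine as well as formylcytosine and carboxylcytosine. It leaves a site without a base, which base excision repair restores to an unmodified cytosine. It thereby completes the route by which methylated cytosines oxidised by TET enzymes return to the unmethylated state, and ESCs are a cell type in which this turnover is well known. Genes near a targeted locus are of interest in any knockout because they travel with the allele and because a changed locus can act on its neighbours. The nearest genes on the lower side belong to a cluster that encodes C2H2 zinc finger proteins, a class of DNA binding proteins of which many carry a KRAB domain and silence transposable elements, and whose members arose by tandem duplication and can be nearly identical in sequence.

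Each library gave between 31095285 and 39916039 reads in genes (median 36008473), of which the 209 genes took 1.01% to 1.36%. Tdg itself followed its labels, with 86.4 to 93.1 CPM in wt, 40.3 to 45.9 CPM in Tdg+/- and 7.75 to 10.6 CPM in Tdg-/- lines. All 9 ESC markers examined were present (at least 139 CPM in every line), and their summed level was 7478 to 8090 CPM in wt, 7508 to 8010 CPM in Tdg+/- and 7635 to 10506 CPM in Tdg-/- lines. The lowest of the Tdg-/- sums was that of Tdg-/- line 1, and the other 3 Tdg-/- lines lay at 9565 CPM or above. The markers did not move together in those 3 lines. Dppa5a was at 4521 to 5148 CPM there, beside 2654 to 3552 CPM in all other lines. Pou5f1, Zfp42 and Tdgf1 were also above all other lines. Esrrb (180 to 197 beside 261 to 365 CPM) and Tfcp2l1 (462 to 521 beside 567 to 981 CPM) were below them. Sox2, Nanog and Klf4 overlapped. The 7 markers of feeder fibroblasts were all detected, none at 0, and summed to 23.4 to 45.0 CPM in wt, 5.62 to 49.0 CPM in Tdg+/- and 12.98 to 34.7 CPM in Tdg-/- lines. The part of either marker list in the results was not tested. Tdg-/- line 1 stood apart from the other Tdg-/- lines across the transcriptome, and the counts below are therefore also given without it.

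Of the 209 genes, the 5 within 1 Mb of Tdg that were called in any comparison all belonged to 1 cluster of zinc finger genes, and the upstream sequences of 6 genes of this cluster are shown because they show how far these neighbours resemble each other. Each run below holds the 150 bases before the RefSeq transcription start (GRCm38.p6, 5′ to 3′ on the strand of the gene), in lower case with every CpG dinucleotide, the site of cytosine methylation and of its removal, in capitals. The runs lie at chr10:81704675-81704824 on the plus strand for Zfp433, chr10:81930513-81930662 on the minus strand for Zfp781, chr10:82047973-82048122 on the plus strand for Zfp873, chr10:82083170-82083319 on the plus strand for BC024063, chr10:82127863-82128012 on the plus strand for AU041133 and chr10:82241281-82241430 on the minus strand for Zfp938.
Zfp433: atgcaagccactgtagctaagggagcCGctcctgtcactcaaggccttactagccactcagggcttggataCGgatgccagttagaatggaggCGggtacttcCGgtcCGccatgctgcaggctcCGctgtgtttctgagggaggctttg
Zfp781: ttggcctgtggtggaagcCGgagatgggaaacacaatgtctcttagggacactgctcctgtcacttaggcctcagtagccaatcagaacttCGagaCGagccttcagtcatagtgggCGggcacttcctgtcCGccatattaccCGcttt
Zfp873: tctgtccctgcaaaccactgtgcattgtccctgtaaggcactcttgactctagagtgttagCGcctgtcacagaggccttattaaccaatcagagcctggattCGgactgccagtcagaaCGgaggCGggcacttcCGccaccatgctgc
BC024063: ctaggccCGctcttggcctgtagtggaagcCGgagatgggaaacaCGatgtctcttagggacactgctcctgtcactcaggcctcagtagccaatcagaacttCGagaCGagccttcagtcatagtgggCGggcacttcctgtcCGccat
AU041133: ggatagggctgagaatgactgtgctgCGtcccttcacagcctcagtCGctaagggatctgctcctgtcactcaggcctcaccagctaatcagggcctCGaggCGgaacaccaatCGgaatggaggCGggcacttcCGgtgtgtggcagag
Zfp938: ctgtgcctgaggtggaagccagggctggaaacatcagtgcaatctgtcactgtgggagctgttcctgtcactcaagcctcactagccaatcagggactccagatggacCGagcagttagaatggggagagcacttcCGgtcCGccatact
The 150 bases held 6 CpG in Zfp433, 6 in Zfp781, 5 in Zfp873, 7 in BC024063, 7 in AU041133 and 3 in Zfp938. Zfp781 and BC024063 shared an unbroken run of 72 bases, whereas the longest run shared by any other pair was 23 bases, between BC024063 and AU041133. Over the whole 300 bases of the RefSeq promoter windows, which span the start,, the 10 promoters of the 8 zinc finger genes within 1 Mb had a median of 8 CpG, beside 20.5 in the 240 promoters of the 177 matched neighbours and 7 in the 32851 promoters of the table. The letters CCAAT, searched on both strands, stood in 9 of these 10 windows, in 99 of the 240 windows of the neighbours and in 37.4% of all windows. The letters TATAAA stood in none of the 10, in 5.0% of the 240 and in 13.6% of all windows.

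The first question was whether the genes around Tdg differ between genotypes at all, and whether a difference declines with distance. Tests were made with edgeR's quasi-likelihood test across all detected genes, with an adjusted p (Benjamini-Hochberg) under 0.05 as the threshold, and a gene past it is said to be called. Between Tdg+/- and wt ESCs, 0 of 208 neighbours tested were called, beside 0.0288% of all 13880 genes (4 genes). An unadjusted p under 0.05 was reached by 23 neighbours (17 higher and 6 lower in Tdg+/- lines), which is 11.1% against 17.0% of all genes. With DESeq2, 8 neighbours were called (6 higher, 2 lower), 3.85% against 5.36% of all genes. Between Tdg-/- and wt ESCs, 0 of 208 were called, beside 0.0718% of all 13926 genes (10 genes). Here 37 neighbours reached an unadjusted p under 0.05 (19 higher, 18 lower), 17.8% against 15.9% of all genes. With the replicate number as a block, 0 were called and 24 reached an unadjusted p under 0.05, 11.5% against 11.2% of all genes. With DESeq2, 2 neighbours were called, Zfp873 and Zfp433, 0.962% against 0.704% of all genes. Over the number of wild-type alleles in all 10 lines, 0 of 209 were called, beside 0.0354% of 14105 genes (5 genes), while 30 neighbours had an unadjusted p under 0.05 (12 with a positive and 18 with a negative slope), 14.4% against 14.0% of all genes. With DESeq2, 1 neighbour was called, 0.478% against 0.362% of all genes.

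The 4 genes within 1 Mb that were left out by name behaved otherwise, and all 4 were called between Tdg-/- and wt ESCs, 2 higher and 2 lower. Gm4924, 0.28 Mb from Tdg, was at 32.9, 34.1 and 39.7 CPM in wt, 49.1, 38.98 and 34.1 CPM in Tdg+/- and 59.6, 77.98, 73.7 and 77.3 CPM in Tdg-/- lines (log2 fold change against wt 1.05 ± 0.14, SE, edgeR adjusted p = 0.0404). 1190007I07Rik, 0.01 Mb from Tdg, was at 11.7, 11.9 and 10.8 CPM in wt, 18.8, 17.3 and 14.5 CPM in Tdg+/- and 19.9, 28.4, 26.1 and 25.1 CPM in Tdg-/- lines (1.14 ± 0.15, edgeR adjusted p = 0.0404). In both, all Tdg-/- lines were above the other lines. Against Tdg+/- lines, Gm4924 was called (0.83 ± 0.15, edgeR adjusted p = 0.0257) and 1190007I07Rik was not (0.56 ± 0.15, edgeR adjusted p = 0.0507). The other two, Gm3055 and Gm32687, were lower and are described with the genes they resemble. With the replicate number as a block, only Gm3055 of the 4 was called against wt (edgeR adjusted p = 0.00171), with adjusted p of 0.111 for Gm32687, 0.168 for Gm4924 and 0.211 for 1190007I07Rik in the same edgeR fit.

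The comparison of Tdg-/- with Tdg+/- ESCs called 18 of 207 neighbours, 6 higher and 12 lower in Tdg-/- lines. This is 8.70%, beside 9.03% of all 13962 genes, so the neighbours were called about as often as other genes. By direction, 3.52% of all genes were called higher and 5.51% lower. All 18 lay on the lower side of Tdg, and of the 50 genes on the higher side edgeR called 0. On that side 18 genes (13 higher, 5 lower) had an unadjusted p under 0.05, 36.0% against 35.2% of all genes, and 11 were called with DESeq2, which called 23.6% of all genes. The median log2 fold change of the neighbours was -0.14, against -0.02 for all genes. In the other comparisons the medians were 0.03 against -0.02 for Tdg+/- with wt, -0.06 against -0.01 for Tdg-/- with wt and 0.05 against 0.02 for the slope per wild-type allele. With single lines left out, the median of the neighbours ran from 0.0053 (without Tdg+/- line 3) to 0.087 (without Tdg+/- line 2) for Tdg+/- with wt, and from -0.0997 (without wt line 3) to -0.022 (without wt line 2) for Tdg-/- with wt. For Tdg-/- with Tdg+/- it was -0.048 without Tdg+/- line 3. The comparisons share lines, since the Tdg-/- lines enter with both wt and Tdg+/-.

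The call of these 18 genes rested on the particular lines in the fit. Without Tdg-/- line 1, 91 of 207 neighbours were called between Tdg-/- and Tdg+/- (33 higher, 58 lower), but so were 40.6% of all genes, and 48 of 208 were called between Tdg-/- and wt (24 in each direction) beside 22.1% of all genes. Without Tdg+/- line 1 the count was 30 of 207 (beside 11.0% of all genes), without Tdg+/- line 2 it was 1, and without Tdg+/- line 3 or any one of Tdg-/- lines 2, 3 and 4 it was 0. The counts of all genes called moved with it, from 12 to 5659.

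**Figure D1:**
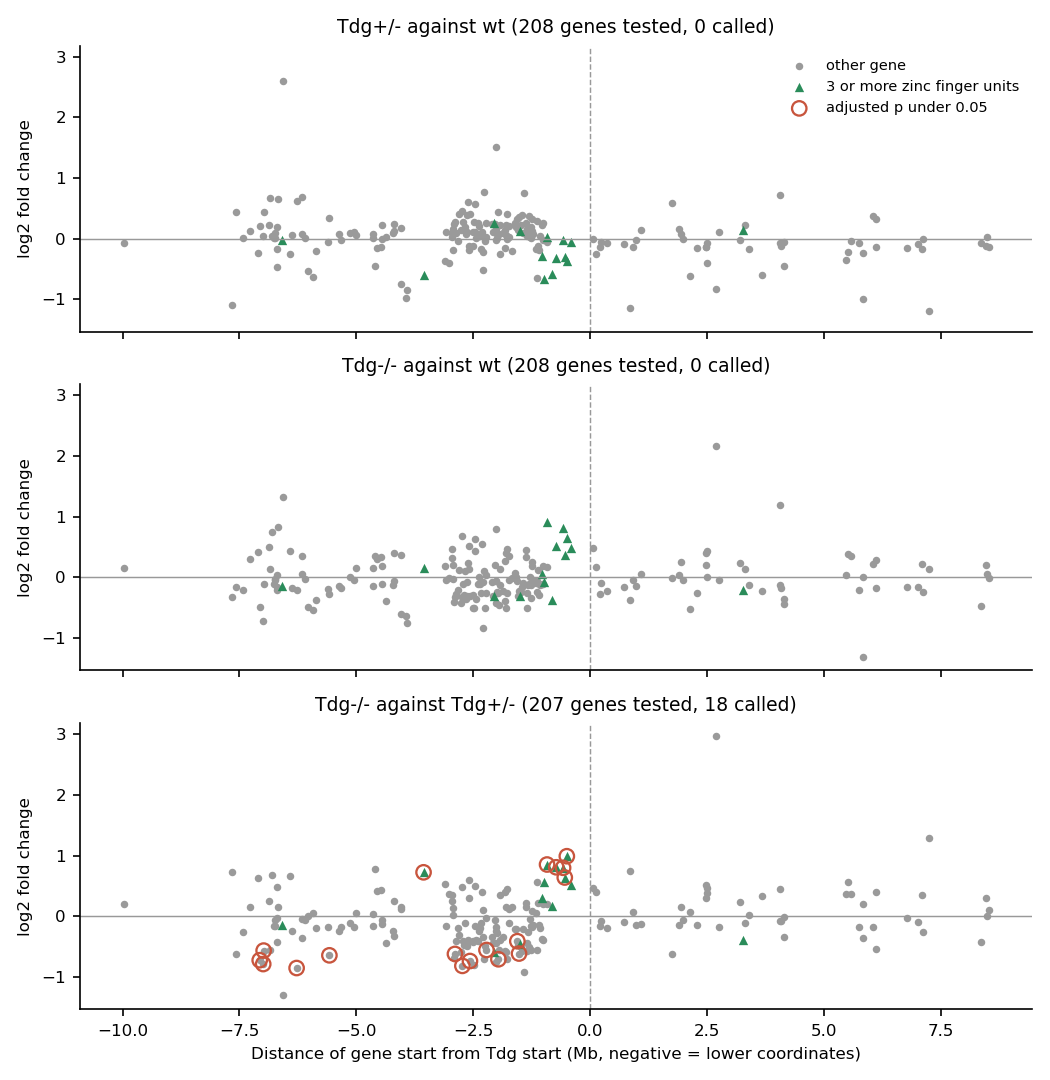
Log2 fold change (vertical axis) of each chosen gene within 10 Mb of Tdg that was tested, against the distance of its start from that of Tdg in Mb (horizontal axis), 1 panel per comparison of genotypes. Triangles mark genes encoding 3 or more zinc finger units, and circles mark called genes. Tdg and the genes left out by name are not drawn. They include the 4 within 1 Mb called between Tdg-/- and wt ESCs. No circles appear in the upper panels, and in the lower panel all 18 lie left of Tdg, 5 of them among the triangles between 0.50 and 0.93 Mb.

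Among the 209 genes, the size of the change showed little relation to distance. The rank correlation of the size of the log2 fold change with distance, given as a description over genes of the same libraries, was 0.02 for Tdg+/- with wt, 0.03 for Tdg-/- with wt, -0.07 for Tdg-/- with Tdg+/- and 0.03 for the slope. These values do not include the 4 genes within 1 Mb left out by name. Their median size of change for Tdg-/- with wt was 2.30, beside 0.22 in the 208 neighbours tested. The correlations therefore do not describe all detected genes near Tdg. Among the neighbours included, the exception was 1 interval. In the 9 neighbours within 1 Mb on the lower side the median log2 fold change of Tdg-/- against Tdg+/- was 0.64, whereas it was -0.27 in the 71 genes at 1 to 2.5 Mb, -0.15 in the 40 genes at 2.5 to 5 Mb and -0.16 in the 37 genes at 5 to 10 Mb. On the higher side the medians were -0.08 in the 9 genes within 1 Mb, 0.00 in the 10 genes at 1 to 2.5 Mb, -0.01 in the 13 at 2.5 to 5 Mb and 0.05 in the 18 beyond. Against wt, the 9 nearest genes on the lower side had a median of 0.49 in Tdg-/- and -0.31 in Tdg+/- lines. These medians depended on single wt lines, and moved to 0.26 in Tdg-/- without wt line 1, and in Tdg+/- to -0.13 without wt line 2 and -0.09 without wt line 3. They also depended on near-identical copies, described below. With such genes summed, the median of the zinc finger genes in this interval moved from 0.72 to 0.52 for Tdg-/- with Tdg+/-. It moved from 0.51 to 0.22 for Tdg-/- with wt, and from -0.31 to -0.42 for Tdg+/- with wt.

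Line by line, with near-identical genes taken singly, this interval did not order the lines by the number of Tdg alleles. Its median log2 CPM, taken relative to the median of the 10 lines, was -0.38, -0.07 and 0.12 in wt lines 1, 2 and 3. In Tdg+/- lines 1, 2 and 3 it was -0.15, -0.34 and -0.39. In Tdg-/- lines 1, 2, 3 and 4 it was -0.08, 0.59, 0.50 and 0.34. Tdg-/- lines 2 to 4 were above every other line, while Tdg-/- line 1 lay within the range of the wt lines and above the Tdg+/- lines. At 1 to 2.5 Mb on the lower side Tdg-/- lines 2 to 4 were the lowest, at -0.14, -0.16 and -0.24, with wt line 3 close to them at -0.13, and Tdg+/- line 3 was the highest at 0.27. On the higher side within 1 Mb all lines lay between -0.21 and 0.12, and the genotypes overlapped.

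**Figure D2:**
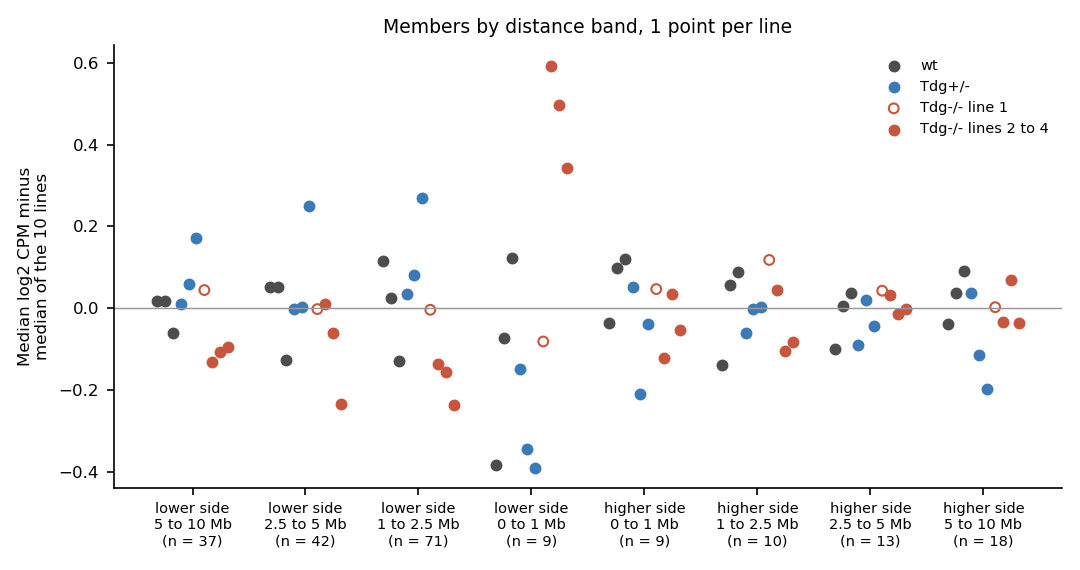
Median over the chosen genes of each distance band of the log2 CPM of a line minus the median of the 10 lines (vertical axis), with 1 point per line, for 4 bands on each side of Tdg (horizontal axis, number of genes in brackets). Genes left out by name are not included, and near-identical genes are taken singly. The bands are ordered along the chromosome, and Tdg-/- lines 2 to 4 leave the other lines most clearly at 0 to 1 Mb on the lower side, where they lie between 0.34 and 0.59.

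Of the 9 neighbours in that interval, 8 encode 10 or more C2H2 units, counted by pattern in their transcripts: Gm10778, Gm4767 and AU041133 with 14 each, Zfp873 with 16, Zfp433 with 17, Zfp781 and BC024063 with 22 each and Zfp938 with 10. The ninth, Gm8112, encodes none, was under 1 CPM in every line and was not called. Of the 8, 5 were called higher in Tdg-/- than in Tdg+/- lines and 0 lower, beside 3.52% and 5.51% of all genes, and in 6 every Tdg-/- line was above every Tdg+/- line, a pattern shown by 11.4% of all genes. Genes of other chromosomes with 3 or more zinc finger units were also called higher more often than genes in general, 94 of 595 (15.8%) with 11 called lower. Of the 14 neighbours with 3 or more units anywhere in the window, 6 were called higher and 0 lower.

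Zfp873, 0.58 Mb from Tdg, had the clearest separation. Its level was 16.8, 20.5 and 22.9 CPM in wt lines 1 to 3, 19.8, 21.0 and 19.1 CPM in Tdg+/- lines 1 to 3, and 29.5, 38.6, 33.9 and 37.0 CPM in Tdg-/- lines 1 to 4. All 4 Tdg-/- lines were above the 6 others. The means were 20.1 ± 3.07 (SD, n = 3), 19.996 ± 0.963 (n = 3) and 34.7 ± 3.97 CPM (n = 4). The log2 fold change of Tdg-/- was 0.80 ± 0.13 (SE) against Tdg+/- (edgeR, adjusted p = 0.0236) and 0.81 ± 0.15 against wt, where the unadjusted p of edgeR was 0.00033 but the adjusted p 0.239. Its Tdg+/- lines did not differ from wt beyond their spread (log2 fold change -0.02 ± 0.14, edgeR adjusted p = 0.965). Without Tdg-/- line 1 both comparisons were called, with log2 fold changes of 0.87 (edgeR adjusted p = 0.00126) against Tdg+/- and 0.89 (edgeR adjusted p = 0.0102) against wt. Its transcripts shared 7.17% of their 31-base words with other genes.

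AU041133, at 0.50 Mb, was at 2.73, 10.5 and 10.8 CPM in wt lines, 6.55, 5.12 and 7.08 CPM in Tdg+/- lines and 9.41, 15.6, 12.5 and 12.1 CPM in Tdg-/- lines. The Tdg-/- lines were above the Tdg+/- lines but overlapped wt lines 2 and 3, and wt line 1 was the lowest of all. The log2 fold change was 0.99 ± 0.19 (SE) against Tdg+/- (edgeR adjusted p = 0.0268) and 0.65 ± 0.40 against wt (edgeR adjusted p = 0.395). AU041133 shared 5.60% of its words with other genes.

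Zfp433, Zfp781 and BC024063 were called higher in Tdg-/- than in Tdg+/- lines as well, but each shares most of its transcript sequence with a copy in the same interval. Zfp433, at 0.93 Mb, was at 15.9, 24.4 and 27.9 CPM in wt lines, 26.3, 25.03 and 18.6 CPM in Tdg+/- lines and 29.4, 46.3, 44.4 and 47.9 CPM in Tdg-/- lines. All Tdg-/- lines were above the other lines, Tdg-/- line 1 only just, and the log2 fold change was 0.85 ± 0.19 (SE) against Tdg+/- (edgeR adjusted p = 0.0351) and 0.91 ± 0.23 against wt (edgeR adjusted p = 0.295). Zfp781, at 0.73 Mb, was at 15.3, 21.3 and 28.6 CPM in wt, 16.5, 16.8 and 19.3 CPM in Tdg+/- and 23.5, 35.0, 31.8 and 32.3 CPM in Tdg-/- lines. Its Tdg-/- lines were above the Tdg+/- lines (0.81 ± 0.15, edgeR adjusted p = 0.0257), whereas wt line 3 lay above Tdg-/- line 1. BC024063, at 0.55 Mb, was at 28.5, 40.1 and 42.2 CPM in wt, 31.9, 29.5 and 28.6 CPM in Tdg+/- and 35.0, 56.5, 47.5 and 47.6 CPM in Tdg-/- lines. Its log2 fold change was 0.64 ± 0.16 against Tdg+/- (edgeR adjusted p = 0.0428) and 0.36 ± 0.19 against wt (edgeR adjusted p = 0.351), and Tdg-/- line 1 fell below wt lines 2 and 3.

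**Figure D3:**
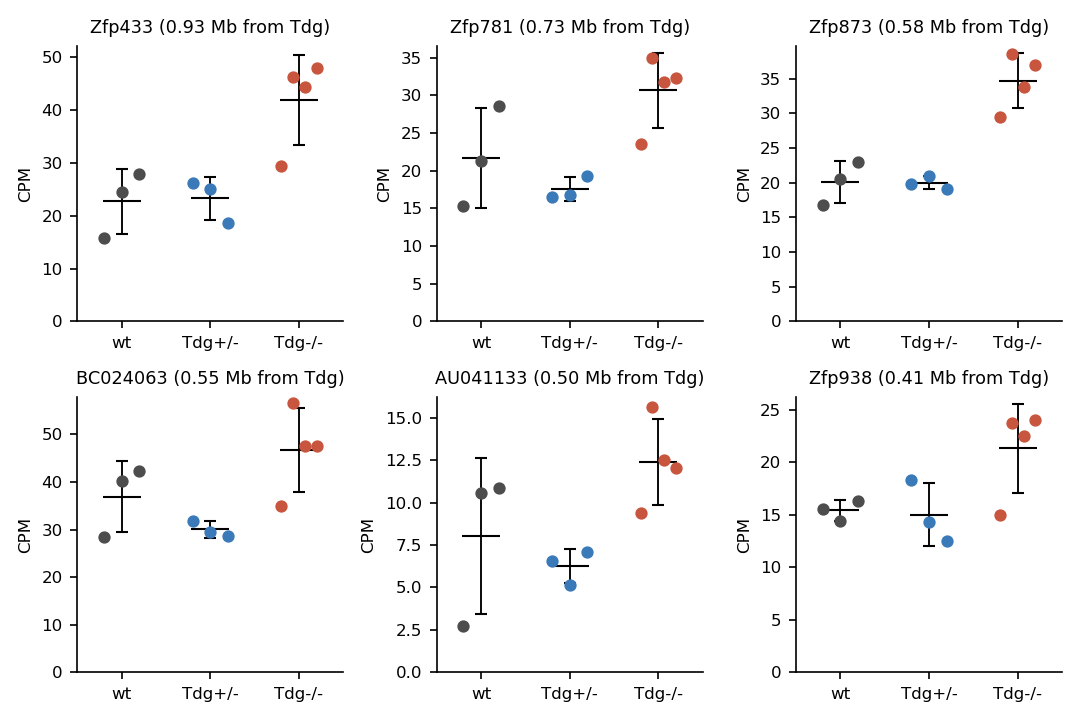
CPM (vertical axis, from 0) of 6 zinc finger genes on the lower side of Tdg, with 1 point per ESC line and the mean ± SD of each genotype (n = 3 wt, 3 Tdg+/-, 4 Tdg-/-). In Zfp873 and Zfp433 all 4 Tdg-/- lines lie above the other lines, and in all 6 panels the lowest Tdg-/- point is that of line 1.

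The copies moved the other way. Gm32687, which holds 81.8% of the 31-base words of Zfp433, was at 18.7, 19.5 and 26.8 CPM in wt, 9.004, 7.47 and 10.9 CPM in Tdg+/- and 0.00, 0.937, 0.197 and 0.267 CPM in Tdg-/- lines. Gm3055, which holds 97.0% of the words of Zfp781 and 69.5% of those of BC024063, was at 19.4, 31.2 and 36.8 CPM in wt, 14.5, 13.6 and 7.44 CPM in Tdg+/- and 1.90, 2.40, 2.95 and 3.18 CPM in Tdg-/- lines. Both were called lower in Tdg-/- than in wt lines (edgeR adjusted p = 0.00896 and 0.000738). They belong to the genes left out by name, and are given because reads of near-identical transcripts are divided between the copies by estimation, so that the level of a gene and of its copy are not measured independently.

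Summed with their copies, these genes no longer separated the genotypes. Zfp433 and Gm32687 together were at 34.6, 43.9 and 54.7 CPM in wt, 35.3, 32.5 and 29.5 CPM in Tdg+/- and 29.4, 47.2, 44.6 and 48.2 CPM in Tdg-/- lines. The sum of Tdg-/- line 1 was the lowest of the 10. The log2 fold change of the sum was 0.39 ± 0.17 (SE) for Tdg-/- against Tdg+/- (edgeR adjusted p = 0.146) and -0.04 ± 0.21 against wt (edgeR adjusted p = 0.919). Zfp781, BC024063 and Gm3055 together were at 63.3, 92.6 and 107.6 CPM in wt, 62.9, 59.9 and 55.4 CPM in Tdg+/- and 60.4, 93.9, 82.3 and 83.1 CPM in Tdg-/- lines. Here the log2 fold change was 0.43 ± 0.15 against Tdg+/- (edgeR adjusted p = 0.0814) and -0.11 ± 0.20 against wt (edgeR adjusted p = 0.766). With such sums in place of the single genes, 14 neighbours were called between Tdg-/- and Tdg+/- (3 higher, 11 lower), beside 8.78% of all genes. Zfp873 kept its value (log2 fold change 0.80).

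**Figure D4:**
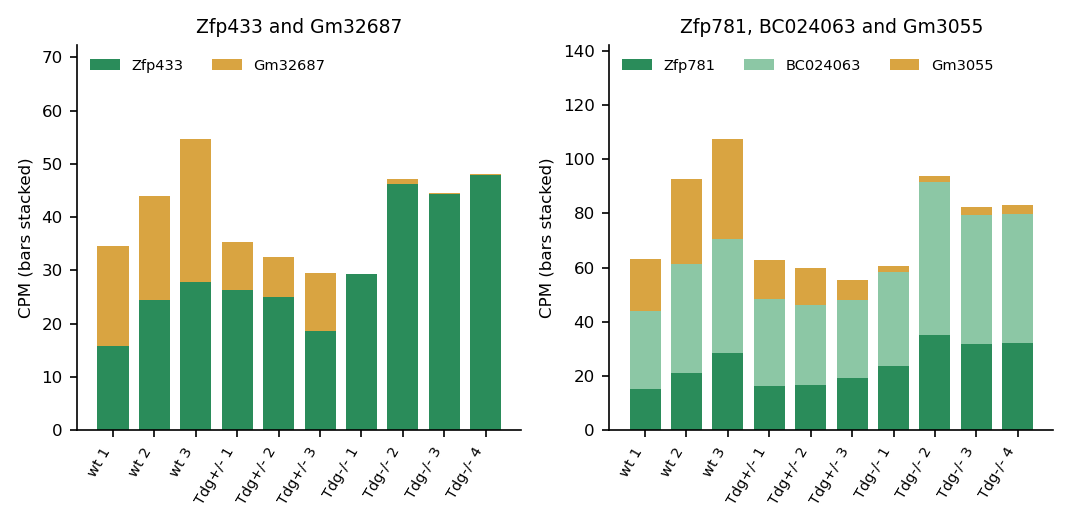
CPM of near-identical zinc finger genes stacked for each of the 10 ESC lines (vertical axis, CPM from 0), neighbours of Tdg in green and the copy left out by name in ochre. The ochre part shrinks from wt over Tdg+/- to Tdg-/- lines, and the full height of the Tdg-/- bars lies within the range of the wt bars except for line 1, whose bars are the lowest of the Tdg-/- lines.

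Gm10778 and Gm4767 are near-identical to each other, sharing 97.8% and 98.0% of their words. Together they were at 75.9, 97.8 and 107.8 CPM in wt, 71.0, 51.6 and 56.9 CPM in Tdg+/- and 68.3, 101.2, 93.8 and 84.7 CPM in Tdg-/- lines. The Tdg+/- lines 2 and 3 were the lowest, and the log2 fold change of Tdg+/- against wt was -0.66 ± 0.17 (SE, edgeR adjusted p = 0.129). Zfp938, the nearest of the cluster at 0.41 Mb, which shares 7.65% of its words, was at 15.6, 14.4 and 16.4 CPM in wt, 18.3, 14.3 and 12.5 CPM in Tdg+/- and 15.0, 23.8, 22.6 and 23.99 CPM in Tdg-/- lines. Only Tdg-/- lines 2 to 4 exceeded the other genotypes, and the gene was not called (0.51 ± 0.20 against Tdg+/-, edgeR adjusted p = 0.102), but was called without Tdg-/- line 1 (0.64, edgeR adjusted p = 0.00858). The sixth gene called higher, 2610008E11Rik, lay outside the cluster at 3.57 Mb and encodes 14 zinc finger units. It was at 9.77, 21.3 and 24.04 CPM in wt, 13.8, 9.56 and 13.2 CPM in Tdg+/- and 16.3, 23.1, 21.6 and 19.5 CPM in Tdg-/- lines, so that the Tdg-/- lines were above the Tdg+/- lines but among the wt lines (0.72 ± 0.17 against Tdg+/-, edgeR adjusted p = 0.0391).

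On the other side, the genes closest to Tdg differed less. Hcfc2, which encodes a relative of the transcriptional coregulator HCFC1 and starts 0.07 Mb away, was at 7.13, 8.02 and 8.90 CPM in wt, 9.36, 7.52 and 7.11 CPM in Tdg+/- and 12.8, 10.3, 12.3 and 8.79 CPM in Tdg-/- lines. Tdg-/- line 4 overlapped the other genotypes, and the log2 fold change of 0.48 ± 0.17 (SE) against wt and 0.47 ± 0.17 against Tdg+/- was not called (edgeR adjusted p = 0.295 and 0.0937). Nfyb, a subunit of the CCAAT binding factor NF-Y, was at 81.1, 80.7 and 92.1 CPM in wt, 83.4, 66.7 and 63.8 CPM in Tdg+/- and 89.0, 89.1, 99.8 and 97.5 CPM in Tdg-/- lines (0.40 ± 0.12 for Tdg-/- against Tdg+/-, edgeR adjusted p = 0.0625). Txnrd1, the cytosolic thioredoxin reductase, was at 374, 353 and 345 CPM in wt, 252, 367 and 366 CPM in Tdg+/- and 352, 269, 276 and 269 CPM in Tdg-/- lines, with Tdg+/- line 1 beside the lower Tdg-/- lines and Tdg-/- line 1 beside the wt lines. Txnrd1 was not called against wt (-0.27 ± 0.12, edgeR adjusted p = 0.314), except without Tdg-/- line 1 (-0.37, edgeR adjusted p = 0.0164). Chst11, a chondroitin sulfotransferase, was at 2.65 ± 1.02 CPM in wt, 2.54 ± 0.503 CPM in Tdg+/- and 2.22 ± 0.674 CPM in Tdg-/- lines (SD), which overlapped. D10Wsu102e lay at 81.0 ± 2.19, 76.4 ± 4.51 and 71.5 ± 2.55 CPM (SD) and was not called (edgeR adjusted p of 0.404 for Tdg-/- against wt).

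The 12 neighbours lower in Tdg-/- than in Tdg+/- ESCs were spread from 1.52 to 7.07 Mb on the lower side and had other functions. In all 12 the Tdg+/- mean was above and the Tdg-/- mean below the wt mean, and none was called between Tdg+/- and wt or between Tdg-/- and wt (lowest edgeR adjusted p 0.0840 and 0.295). In 11 of the 12, no Tdg-/- line reached the Tdg+/- lines, and in 11 Tdg-/- line 1 was the highest of the 4 Tdg-/- lines. Of all genes tested, 13.1% had every Tdg-/- line below every Tdg+/- line. The 12 were picked by the difference between these same lines, so their separation follows largely from that choice. It is not a result beyond the calls and cannot be set against that share. The order of the means is partly set by the choice too.

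Transcription and chromatin genes gave 5 of the 12, of 28 in the list, with 0 called higher, beside 5.51% of all genes called lower and 3.52% higher, and had a median log2 fold change of -0.19. The same shares of all genes apply to the lists that follow, in each of which no more than 2 genes were called. Sbno2, a transcriptional coregulator, was at 19.97, 18.5 and 16.8 CPM in wt, 23.5, 22.9 and 27.4 CPM in Tdg+/- and 20.3, 12.2, 13.02 and 13.4 CPM in Tdg-/- lines (-0.74 ± 0.18, SE, edgeR adjusted p = 0.0420). Med16, a subunit of the Mediator complex, was at 8.56, 11.6 and 14.9 CPM in Tdg+/- and 8.06, 6.42, 5.88 and 6.15 CPM in Tdg-/- lines, with wt lines at 9.28, 8.92 and 7.12 CPM (-0.82 ± 0.20, edgeR adjusted p = 0.0410). Polrmt, the mitochondrial RNA polymerase, was at 19.1, 19.4 and 23.4 CPM in Tdg+/- and 17.3, 12.6, 11.8 and 11.8 CPM in Tdg-/- lines, with wt lines at 15.3 to 19.6 CPM (-0.62 ± 0.16, edgeR adjusted p = 0.0474). Cabin1, an inhibitor of calcineurin, changed by -0.57 ± 0.13 (edgeR adjusted p = 0.0388). Tcf3, a basic helix-loop-helix factor which falls outside the naming rule and was named after its values were seen, changed by -0.56 ± 0.13 (edgeR adjusted p = 0.0349). Mbd3, a subunit of the NuRD chromatin remodelling complex, was at 54.0 ± 5.14, 55.5 ± 5.61 and 54.3 ± 1.24 CPM (SD) in wt, Tdg+/- and Tdg-/- lines. Polr2e, a subunit shared by the nuclear RNA polymerases, was at 144 to 161 CPM in wt, 138 to 146 CPM in Tdg+/- and 141, 256, 234 and 234 CPM in Tdg-/- lines, with line 1 among the other genotypes (0.60 ± 0.19, edgeR adjusted p = 0.0630). Cry1, a repressor of the circadian clock, was at 37.9 ± 4.69, 28.8 ± 2.34 and 37.4 ± 2.53 CPM (SD) in wt, Tdg+/- and Tdg-/- lines and was not called (edgeR adjusted p = 0.190 for Tdg+/- against wt).

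Pcnt, which encodes the centrosome scaffold pericentrin, had the smallest p of the lower genes. It was at 43.6, 41.7 and 45.6 CPM in wt, 60.7, 70.4 and 70.6 CPM in Tdg+/- and 49.3, 31.8, 35.3 and 32.3 CPM in Tdg-/- lines. Every Tdg+/- line was above every line of the other genotypes, and Tdg-/- line 1 was above wt while the others were below it. The log2 fold change was -0.86 ± 0.16 (SE) for Tdg-/- against Tdg+/- (edgeR adjusted p = 0.0257) and 0.61 ± 0.11 for Tdg+/- against wt (edgeR adjusted p = 0.0840). It was 1 of 8 genes of cell division, the nuclear envelope and cell death, of which 1 was called lower and 0 higher. In the same list Apaf1, the scaffold of the apoptosome, was at 57.3, 55.4 and 56.0 CPM in wt, 58.5, 48.7 and 53.7 CPM in Tdg+/- and 54.0, 32.9, 36.9 and 36.4 CPM in Tdg-/- lines, again with line 1 among the other genotypes (-0.47 ± 0.16 against wt, edgeR adjusted p = 0.295). Tmpo, a protein of the nuclear lamina, lay at 318 ± 28.2, 290 ± 16.9 and 311 ± 15.7 CPM (SD).

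Of the 15 signalling genes, 2 were called lower and 0 higher, beside 5.51% and 3.52% of all genes. Mknk2, a kinase that phosphorylates the cap binding protein eIF4E, was at 31.2, 29.5 and 27.0 CPM in wt, 37.2, 36.3 and 45.4 CPM in Tdg+/- and 32.5, 20.6, 22.1 and 21.7 CPM in Tdg-/- lines (-0.71 ± 0.17, SE, edgeR adjusted p = 0.0415). Map2k2, the kinase MEK2, which the 2i medium inhibits, was at 48.5, 44.0 and 35.3 CPM in wt, 43.1, 55.5 and 65.8 CPM in Tdg+/- and 43.9, 34.2, 33.0 and 31.7 CPM in Tdg-/- lines. Tdg-/- line 1 overlapped Tdg+/- line 1, and the gene passed the threshold only narrowly (-0.62 ± 0.17, edgeR adjusted p = 0.04996). Stk11, the kinase LKB1, was at 24.8 ± 1.51, 27.0 ± 2.95 and 19.97 ± 2.34 CPM (SD) and was not called (edgeR adjusted p = 0.0627 for Tdg-/- against Tdg+/-).

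Of the 10 genes of matrix and cell surface, 2 were called lower and 0 higher, beside 5.51% and 3.52% of all genes. Susd2, a membrane protein with a sushi domain, was at 24.8, 20.6 and 15.1 CPM in wt, 20.4, 18.7 and 23.6 CPM in Tdg+/- and 16.4, 10.8, 11.6 and 9.56 CPM in Tdg-/- lines. The Tdg-/- lines were below the Tdg+/- lines, and only line 1 reached the lowest wt line (-0.79 ± 0.18, SE, edgeR adjusted p = 0.0374). Col18a1, the collagen that gives rise to endostatin, was at 89.6, 96.7 and 82.3 CPM in wt, 91.8, 112 and 138 CPM in Tdg+/- and 77.6, 72.8, 73.1 and 68.1 CPM in Tdg-/- lines (-0.65 ± 0.14, edgeR adjusted p = 0.0316). It is the called gene whose Tdg-/- lines all lay below the wt lines, although the difference from wt was not called (-0.27 ± 0.11, edgeR adjusted p = 0.297). Bsg, basigin, was at 293 ± 53.9, 258 ± 7.68 and 284 ± 17.9 CPM (SD).

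Among the 10 glutathione and redox genes, Ggt1, which encodes a gamma-glutamyltransferase, was called lower (-0.73 ± 0.19, SE, edgeR adjusted p = 0.0488). It was at 11.6, 4.59 and 3.92 CPM in wt, 9.21, 8.60 and 5.64 CPM in Tdg+/- and 5.04, 4.11, 4.56 and 5.17 CPM in Tdg-/- lines, so wt lines lay at both ends. Gstt2, a theta class glutathione transferase, was at 12.8, 12.5 and 9.62 CPM in wt, 13.7, 12.5 and 9.92 CPM in Tdg+/- and 12.04, 24.2, 20.3 and 20.5 CPM in Tdg-/- lines. Lines 2 to 4 of Tdg-/- were the highest and line 1 lay with the other genotypes (0.75 ± 0.23 against wt, edgeR adjusted p = 0.295). Gpx4, the glutathione peroxidase that acts on lipid peroxides, was at 302 ± 23.96, 266 ± 69.6 and 329 ± 38.9 CPM (SD), and 38.9% of its words are shared with other genes, nearly all with a pseudogene.

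Among the 11 genes of metabolism and carriers, Thop1, a cytosolic oligopeptidase, was called lower (-0.41 ± 0.11, SE, edgeR adjusted p = 0.0467), from 112 ± 7.15 CPM in Tdg+/- to 84.4 ± 6.90 CPM in Tdg-/- lines (SD), with wt lines at 89.3 ± 14.7 CPM. Slc25a3, the mitochondrial phosphate carrier, lay at 421 ± 26.3, 432 ± 23.7 and 432 ± 14.0 CPM (SD), with a log2 fold change of 0.06 ± 0.10 (SE) for Tdg-/- against wt. None of the 18 genes of RNA processing and translation and none of the 14 of protein folding, endoplasmic reticulum and Golgi were called by edgeR. At an unadjusted p under 0.05, the first list had 3 genes higher and 7 lower, and the second 1 higher and 3 lower, beside 35.2% of all genes in either direction. The most abundant of all neighbours, Eef2, the translation elongation factor that moves the ribosome along the mRNA, was at 1928 ± 144 CPM in wt, 2537 ± 506 CPM in Tdg+/- and 1700.2 ± 334 CPM in Tdg-/- lines (SD, edgeR adjusted p = 0.0638 for Tdg-/- against Tdg+/-). Hsp90b1, the chaperone of the endoplasmic reticulum, was at 703 ± 120, 675 ± 57.7 and 637 ± 59.1 CPM.

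The genes called higher and those called lower differed in base composition, which the rule did not use. The longest transcripts of the 6 called higher had a G+C content of 37.7% to 41.3%, and those of the 12 called lower 55.4% to 61.0%. The neighbours on the lower side had a median of 56.9%, those on the higher side 46.7% and all detected genes 49.8%, while the 9 genes within 1 Mb on the lower side had 38.4%. Across genes of the same libraries, the rank correlation of the log2 fold change with G+C content was -0.46 in the 207 neighbours and -0.34 in all genes for Tdg-/- against Tdg+/-, and 0.43 and 0.35 for Tdg+/- against wt. It differed between single lines, from -0.47 in wt line 3 to 0.49 in Tdg+/- line 3, and was 0.00, -0.12, -0.24 and -0.22 in Tdg-/- lines 1 to 4. With a smooth trend over G+C content removed from each line, an alternative chosen after the data were seen, 3 of 207 neighbours were called between Tdg-/- and Tdg+/- (2 higher, 1 lower), beside 3.12% of all genes, and the median of the neighbours was -0.02. Zfp873 was still called higher (0.60, edgeR adjusted p = 0.0409) and Pcnt lower (-0.69), while AU041133 (0.69, edgeR adjusted p = 0.0620), Zfp433 (0.57, edgeR adjusted p = 0.0633), Zfp781 (0.50, edgeR adjusted p = 0.0760) and BC024063 (0.33, edgeR adjusted p = 0.129) were no longer past the threshold. Against wt, 0 of 208 neighbours were called with the offset, beside 0.0574% of all genes. In that fit Zfp433 was at 0.87 (edgeR adjusted p = 0.269) and AU041133 at 0.64 (edgeR adjusted p = 0.340). Zfp873 was at 0.76, Zfp781 at 0.49, Zfp938 at 0.42 and BC024063 at 0.31.

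**Figure D5:**
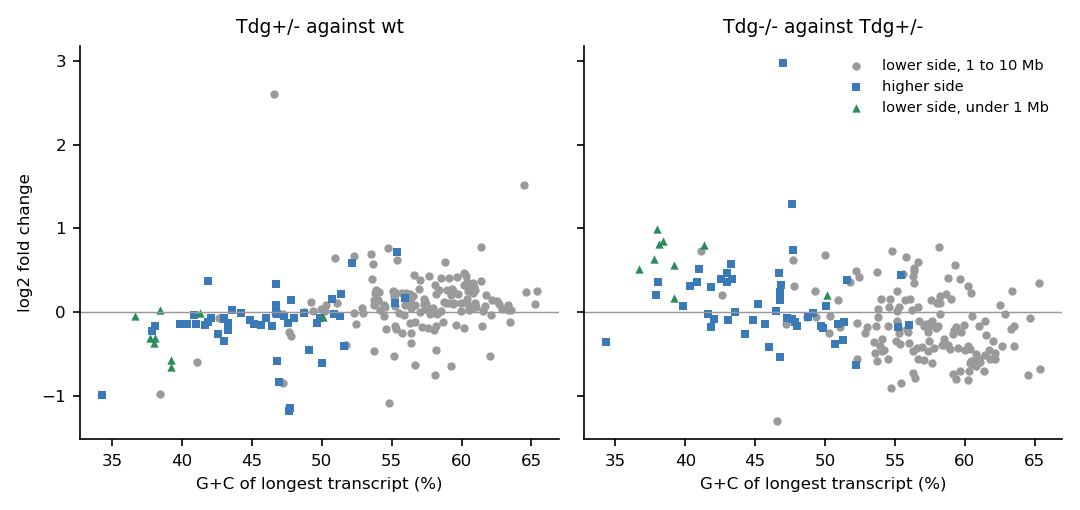
Log2 fold change (vertical axis) of the chosen genes within 10 Mb of Tdg against the G+C content of the longest transcript in percent (horizontal axis), for Tdg+/- against wt and Tdg-/- against Tdg+/-, 1 point per gene. Genes left out by name are not drawn. The genes within 1 Mb on the lower side lie at the low end of G+C content, apart from Gm8112, and the slope of the cloud turns from rising (rank correlation 0.43) to falling (-0.46).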

How the data were processed

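Stranded total RNA libraries were made by the authors after ribosomal depletion and sequenced as single-end reads, which they quantified with Salmon 0.8.1 against GRCm39 transcripts. For 116357 transcripts the deposited files hold an estimated count, which is not normalized and need not be whole, and a TPM value, which the authors' tool scales to the same total in each line. Here the estimated counts deposited were summed per gene and rounded, so that a few more genes reach 20 reads in the tests than before rounding. The deposited TPM served only to choose examples from gene lists.

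Names, chromosomes and distances came from an annotation of GRCm38, which paired 98.97% of transcripts. The files use another build, so coordinates of the genes themselves are not given. Those of the upstream sequences shown are on GRCm38.p6. Unpaired reads (0.472% to 0.499% per line) were left out.

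Genes with at least 20 reads in 1 line of the fit were tested with edgeR 4.0.16 (TMM, quasi-likelihood, R 4.3.3), each pair of genotypes in its own fit, with DESeq2 1.42.0 as an alternative. Values in CPM use TMM library sizes, and medians per line a prior count of 2. Standard errors were obtained from the fold change and the F statistic of each gene. Zinc finger units were counted by pattern, and shared sequence as 31-base words found in other genes. The tests were checked on simulated counts for recovery of the size of planted fold changes. The simulated lines were independent and none stood apart, so the check does not bear on the reliability of the calls. Lines were grouped by their labels. Deviations from the genotype means correlated at 0.14 to 0.17 in all 3 same-numbered pairs of wt and Tdg-/- lines, so that comparison is also given with the replicate number as a block, in which Tdg-/- line 4 has no partner and does not bear on the difference.

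The members and gene lists were chosen with earlier results of these data known. Genes named are those called (up to 10 in each direction by size, if their mean reached 1 CPM), the 5 nearest on each side of Tdg, and the most abundant by TPM or smallest trend p of each list. Genes on opposite strands were separated only as far as the strand setting of the quantification, which is not given in the sources used here, allows.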

Additional observations from a re-analysis of the deposited data

Results flagged for a closer look

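Of 58 values examined among the 4 Tdg-/- lines, 6 had 1 line far from the other 3. Its gap to the nearest line took a larger share of the whole range than Dixon's 95% limit for 4 samples allows. Chance alone flags about 1 in 20 of independent values. The 58 values share the same 4 libraries, so that rate cannot be set against their count. In all 6 the line apart was Tdg-/- line 1. It was the lowest for Zfp938, at 15.0 CPM beside 22.6 to 23.99 CPM in the other Tdg-/- lines. It was also the lowest for Cstb, which encodes the cathepsin inhibitor cystatin B, at 138 CPM beside 187 to 197 CPM. It was the highest for Sbno2, at 20.3 CPM beside 12.2 to 13.4 CPM, and for Mknk2, at 32.5 CPM beside 20.6 to 22.1 CPM. The same held for Polrmt, at 17.3 CPM beside 11.8 to 12.6 CPM, and for Txnrd1, at 352 CPM beside 269 to 276 CPM. For Zfp938, Cstb, Polrmt and Txnrd1 line 1 fell within the range of the wt lines, and for Sbno2 and Mknk2 it lay between the highest wt line and the lowest Tdg+/- line. What sets line 1 apart was not tested.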

How the results depend on the processing

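Neighbours called between Tdg-/- and Tdg+/-, 18 as reported, numbered 60 with DESeq2 (beside 23.6% of all genes), 32 with all 10 lines in the fit (13.002%), 29 among genes of at least 1 CPM in 3 lines (13.7%), 27 without a filter (6.66%), 19 with other size factors (9.52%), 14 with near-identical genes summed (8.78%), 4 with transcript lengths as an offset (3.32%) and 3 with a G+C offset (3.12%), which moved their median log2 fold change to -0.015. The calls of all genes thus moved as well. Leaving out single lines moved that median between -0.151 and -0.048. Leaving out single lines gave 0 to 91 called neighbours. For Tdg-/- against wt (0) the count was 2 with DESeq2 and 0 to 48 with single lines left out, for Tdg+/- against wt (0) it was 8 with DESeq2, 2 without a filter and 0 to 1 with single lines left out, and for the trend (0) it was 1 with DESeq2 and 0 whichever line was left out. The G+C offset, the sums and the median of the zinc finger genes were chosen after the data were seen. The cause of these shifts was not tested.

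The labels number replicates within genotypes and do not say that a number marks a shared origin. With a replicate block 0 of 207 neighbours were called between Tdg-/- and Tdg+/-, beside 6 of all genes, and 0 in the other comparisons. An unadjusted p of edgeR under 0.05 was reached there by 47 neighbours, 22.7% against 21.5% of all genes. Same-numbered wt and Tdg+/- lines had correlations of -0.03 to 0.10 in their deviations from the genotype means, and Tdg+/- and Tdg-/- lines of -0.09 to 0.04. Lines of different number were not compared, so these values cannot tell whether a number marks a shared origin.

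For Tdg+/- against wt, the median size of change at 5 to 10 Mb on the lower side was 0.17. Among genes of at least 5 CPM it was 0.086. For Tdg-/- against wt at 2.5 to 5 Mb on the higher side, these values were 0.21 and 0.13. Depth limits the values of the 25 neighbours under 1 CPM.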
